A study of Arabidopsis thaliana with 5 samples.

Results

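MAP kinase cascade genes are described here by where TREE1, tagged with green fluorescent protein, was found around them in Arabidopsis thaliana. The set is the 10 genes MPK1 (AT1G10210), MPK2 (AT1G59580), MPK3 (AT3G45640), MPK4 (AT4G01370), MPK6 (AT2G43790), MKK1 (AT4G26070), MKK2 (AT4G29810), MKK4 (AT1G51660), MKK5 (AT3G21220) and MKK9 (AT1G73500), taken by locus from 27432 nuclear protein-coding genes. All 10 loci were found in the gene table under these names or with them as synonyms. A peak counted for a gene when at least 1 bp of it lay in the gene or in the 1000 bp on either side. The group was selected on peak calls of these same 3 libraries, in which MPK genes had peaks more often than other genes. Whether members had peaks is therefore a description and carries no test.

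Chromatin immunoprecipitation sequencing was done with an anti-GFP antibody on shoot tissue of 3-day-old dark-grown seedlings. All samples carried TREE1-GFP driven by the TREE1 promoter, and no line without the tag was used here. Seedlings received 10 ppm ethylene, a gaseous plant hormone, in hydrocarbon-free air for 4 h (2 ChIP libraries) or that air alone for 4 h (1 ChIP library). Each treatment also had 1 input library with no antibody, used only in the authors' peak calls. Ethylene library 1 kept 5884897 tags after duplicate removal, ethylene library 2 kept 9459860 and the air library kept 9325092. The peak lists held 9156, 9958 and 8602 peaks in that order, with median fold enrichments of 3.99, 3.39 and 3.11. Because air had 1 library, no difference between the treatments has a replicate check, and no test was made.

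A MAP kinase cascade is a relay of protein kinases. A MAP kinase kinase kinase phosphorylates a MAP kinase kinase (MKK), which phosphorylates a MAP kinase (MPK), which in turn phosphorylates transcription factors and enzymes. In Arabidopsis MKK4 and MKK5 act on MPK3 and MPK6 in immunity, stomatal patterning and the control of ACC synthases, the enzymes that make the ethylene precursor. MKK9 is a further activator of MPK3 and MPK6 that has been studied in ethylene responses. MKK1 and MKK2 act on MPK4 in stress and defence, and MPK1 and MPK2 are close relatives that act below MKK3.

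All 5 MKK genes had a peak in each of the 3 libraries, whereas the 5 MPK genes were mixed. MPK1 and MPK3 had peaks in every library. MPK2 and MPK6 had a peak in ethylene library 2 and in air, and none in ethylene library 1, the shallowest library, a pattern of 4.41% of all coding genes. MPK4 had no peak in any library. When peaks had to overlap the gene body itself, MKK9 had a peak in ethylene library 1 alone and MPK1 lost that of ethylene library 1. This left 5 genes with a peak in all libraries, a pattern whose share of all coding genes was not computed. Per library, 6, 8 and 8 of the 10 genes then had a peak in ethylene library 1, ethylene library 2 and air. The shares of all coding genes were 29.0%, 29.3% and 29.6%. With the 1000 bp on either side included, 7 of the 10 genes had a peak in ethylene library 1, where 40.7% of all coding genes did. The count was 9 of 10 in ethylene library 2 and 9 of 10 in air, beside 41.2% and 39.2% of all coding genes. A peak in all 3 libraries was found at 7 of the 10 genes and at 25.6% of all coding genes. Ethylene library 2 and air both had a peak at 9 of 10 genes and at 30.1% of coding genes, and ethylene library 1 and air at 7 of 10 and at 29.9%. No gene of the set had peaks in both ethylene libraries and none in air, a pattern seen at 5.93% of coding genes. The members are 1553 to 3383 bp long, and among the 13490 coding genes in that range 44.2% had a peak in ethylene library 1, 45.3% in ethylene library 2, 42.8% in air and 28.2% in all libraries.

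**Figure D1:**
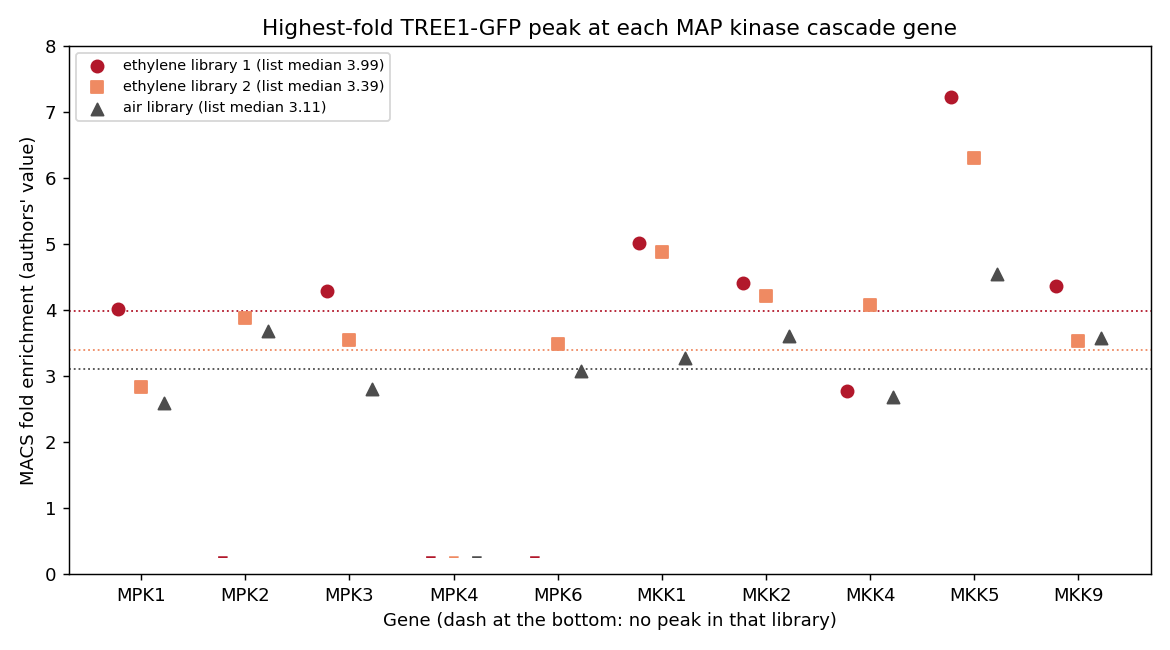
Fold enrichment of the highest-fold peak at each gene (vertical axis, the authors' ratio to local background) in ethylene library 1 (circles), ethylene library 2 (squares) and air (triangles). Dotted lines are the list medians of 3.99, 3.39 and 3.11. MKK5 stands above the other genes in every library, at 7.22, 6.31 and 4.55, and MPK4 has no point.

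MKK5 carried the peak with the highest fold of the set in every library. Its fold ranked 181 of 9156 in ethylene library 1, 136 of 9958 in ethylene library 2 and 367 of 8602 in air. MKK5 is the kinase paired with MKK4 upstream of MPK3 and MPK6. The fold enrichment was 7.22 in ethylene library 1, 6.31 in ethylene library 2 and 4.55 in air, each on the scale of its own list. Summit heights, the tag pileup at the highest point, were 34 in ethylene library 1, 42 in ethylene library 2 and 48 in air, where the list medians were 20, 24 and 32. The peak lay on chromosome 3 (TAIR10) from 7445147 to 7445895 in ethylene library 1, from 7445132 to 7445496 in ethylene library 2 and from 7445081 to 7445895 in air. Its summits lay 298, 247 and 293 bp outside the lower-numbered end of MKK5.

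The MKK5 peak held 137 tags in ethylene library 1 (95% exact Poisson interval 115.0 to 162.0), 96 in ethylene library 2 (77.8 to 117.2) and 180 in air (154.7 to 208.3). Per bp of peak this was 0.183, 0.263 and 0.221 tags. In ethylene library 2 the same stretch was split into 2 peaks, and the weaker one, with 66 tags, a height of 19 and a fold of 2.90, had its summit 85 bp inside the gene. The neighbouring gene AT3G21215 ends 291 bp from MKK5. The summits of ethylene library 1 and air lay inside AT3G21215 and that of ethylene library 2 lay 45 bp from it, so the binding cannot be assigned to either gene by position.

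MKK1 had the widest peak and the most tags of the set. It held 390 tags in ethylene library 1 (352.2 to 430.7), 500 in ethylene library 2 (457.1 to 545.8) and 497 in air (454.3 to 542.7), over 2031, 1647 and 2121 bp. That gave 0.192, 0.304 and 0.234 tags per bp. The folds of 5.01, 4.88 and 3.28 ranked 1275, 561 and 3200 in their lists. The peak spanned chromosome 4 from 13219319 to 13220965 in ethylene library 2. Its summits did not coincide: they lay 732 bp beyond the higher-numbered end of MKK1 in ethylene library 1, 111 bp inside that end in ethylene library 2 and 14 bp beyond it in air. The records of MKK1 and ABI1 overlap by 22 bp at this end, and the first and last of these summits lay inside ABI1, which encodes a protein phosphatase that restrains abscisic acid signalling. Summit heights were 24, 33 and 32. By deposited score, 10 times the negative log10 of the p-value, MKK1 stood above MKK5 in every library. MKK1 had 692.42, 848.12 and 379.33, and MKK5 had 241.72, 138.35 and 98.15.

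MKK2, the close relative of MKK1, had 1 narrow peak in each library at nearly the same point. Its summits lay 58, 29 and 6 bp beyond the higher-numbered end of the gene in ethylene library 1, ethylene library 2 and air, a spread of 52 bp. The peaks held 70 tags in ethylene library 1 (54.6 to 88.4), 116 in ethylene library 2 (95.9 to 139.1) and 148 in air (125.1 to 173.9). Tags per bp were 0.162, 0.234 and 0.234, and summit heights 23, 29 and 38. Folds of 4.41, 4.22 and 3.61 all lay above the list medians. In ethylene library 2 the peak ran from 14595119 to 14595614 on chromosome 4. The next gene, CFIM-25, which encodes a subunit of an mRNA 3' end processing factor, is 295 bp from MKK2, and all 3 summits were nearer to MKK2.

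MKK4 differed between the ethylene replicates. Its peak ranked 9058 of 9156 in ethylene library 1, with a fold of 2.78, but 1718 of 9958 in ethylene library 2, with a fold of 4.07. In air the fold was 2.68, at rank 7214 of 8602. The summits nevertheless lay close together, 107, 61 and 180 bp outside the lower-numbered end of the gene. Tags numbered 52 in ethylene library 1 (38.8 to 68.2), 123 in ethylene library 2 (102.2 to 146.8) and 136 in air (114.1 to 160.9). The height of 13 in ethylene library 1 was below its list median of 20, while 26 in ethylene library 2 was above its median of 24 and 29 in air below its median of 32. Tags per bp were 0.121, 0.237 and 0.218. AT1G51650 lies 271 bp away on this side, and the air summit was nearer to it than to MKK4.

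MKK9 had the most peaks, 3 in each ethylene library and 2 in air, at 4 separate regions. At 2 of these regions all libraries had a peak. The first lay on the lower-numbered side, with summits 638, 486 and 708 bp outside the gene, folds of 3.48, 3.50 and 2.95, tags of 48, 115 and 125, tags per bp of 0.139, 0.206 and 0.201, and heights of 16, 25 and 28. The other lay past the higher-numbered end and was the stronger by fold in every library, at 4.36, 3.53 and 3.57, with 152, 153 and 251 tags, 0.209, 0.252 and 0.266 tags per bp, and heights of 26, 29 and 43. Its edge entered the MKK9 window, but its summits lay 1202, 1062 and 1054 bp from the gene and nearer to AT1G73510, at 541, 681 and 689 bp. Each of the remaining regions had a peak in 1 ethylene library. In ethylene library 1 a summit lay 163 bp inside the higher-numbered end (55 tags, 0.137 tags per bp, height 16), and in ethylene library 2 a summit lay 342 bp beyond it (86 tags, 0.212 tags per bp, height 20). Folds there were 3.46 and 2.60.

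**Figure D2:**
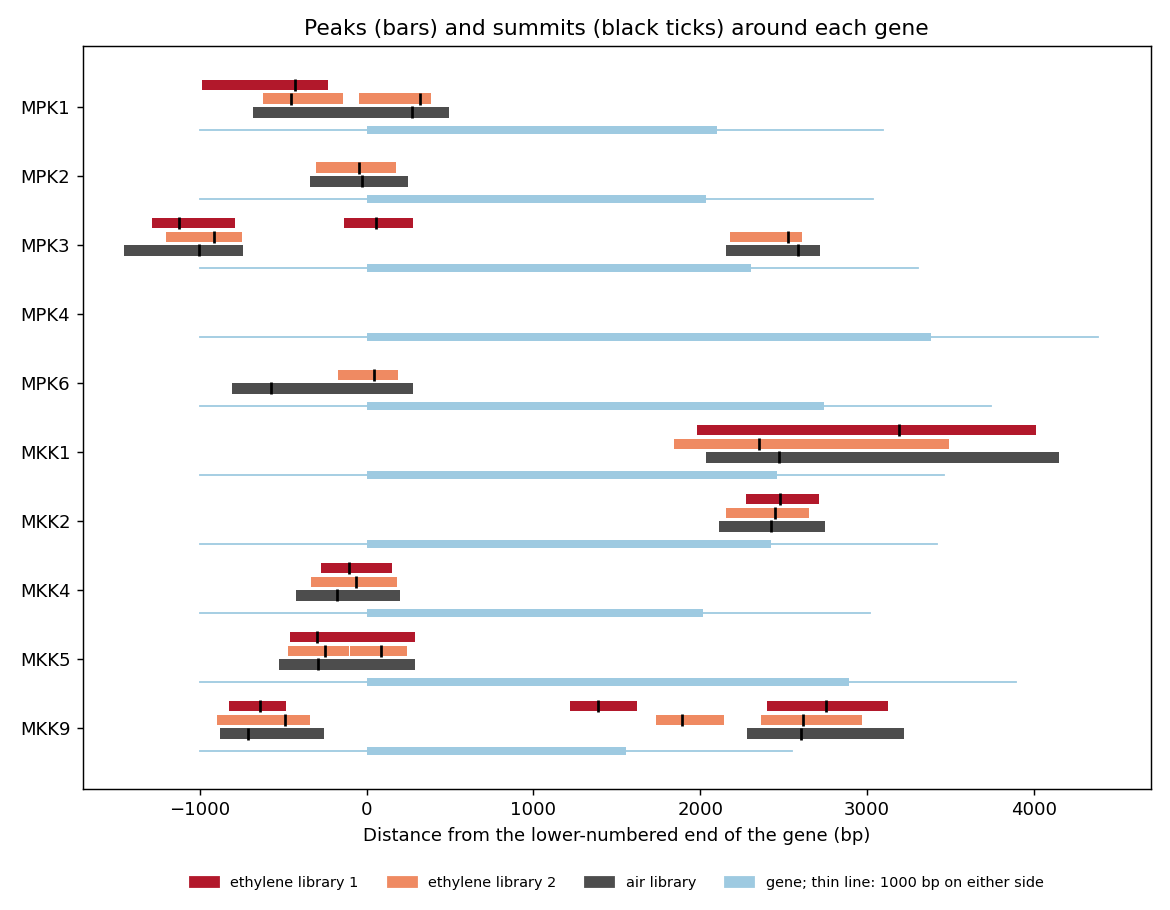
Peaks (bars) and summits (black ticks) of ethylene library 1, ethylene library 2 and air, drawn to scale as bp from the lower-numbered end of each gene. Gene bodies are blue and the thin line is the 1000 bp on either side. The MKK2 summits lie within 52 bp of each other, whereas those of MKK1 spread over 843 bp.

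The MPK genes had peaks of lower fold than MKK5. MPK1 had 1 peak in ethylene library 1, 2 in ethylene library 2 and 1 in air, and these joined into a single region on chromosome 1 from 3348093 to 3349577. In ethylene library 1 the summit lay 430 bp outside the lower-numbered end, with 115 tags (94.9 to 138.0), 0.152 tags per bp, a height of 20 and a fold of 4.02, just above the list median. Ethylene library 2 had summits 451 bp outside and 323 bp inside that end, with 91 and 80 tags, 0.189 and 0.186 tags per bp, a height of 18 at each, and folds of 2.52 and 2.84. In air a peak of 1174 bp covered both places, with 249 tags (219.0 to 281.9), 0.212 tags per bp, a height of 30, a fold of 2.59 and its summit 271 bp inside the gene. The ethylene library 2 and air peaks ranked low in their lists, at 8674 of 9958 for the better one and 7652 of 8602. The nearest gene on this side, 942 bp from MPK1, is WLIM1, which encodes an actin-binding LIM protein.

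MPK2, the relative of MPK1, had its peak at the gene end itself, 45 bp outside it in ethylene library 2 and 25 bp outside it in air. The peak held 110 tags in ethylene library 2 (90.4 to 132.6) and 121 in air (100.4 to 144.6), which were 0.229 and 0.206 tags per bp, with heights of 30 and 36. Its folds of 3.88 and 3.69 ranked 2307 and 1520, higher in each list than those of any other MPK gene of the set. Ethylene library 1 had no peak closer than 50097 bp to MPK2. ZCF61 lies 211 bp from MPK2 on the side of the peak.

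At MPK6, a main MAP kinase of immunity and development, the ethylene library 2 peak lay 43 bp inside the gene. It was 355 bp wide, with 73 tags (57.2 to 91.8), 0.206 tags per bp, a height of 24 and a fold of 3.49. The air peak was 1085 bp wide, with 234 tags (205.0 to 266.0), 0.216 tags per bp, a height of 35 and a fold of 3.08. Its summit lay 573 bp outside MPK6 and inside the neighbouring gene AT2G43780, 616 bp from the ethylene library 2 summit, so the shared call covers summits at different places. In ethylene library 1 the nearest peak was 2306 bp from MPK6.

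MPK3, the partner of MPK6, had peaks at 3 regions, of which 1 was shared by all libraries. That region lay far out, with summits 1127, 916 and 1003 bp outside the lower-numbered end in ethylene library 1, ethylene library 2 and air. Its tags numbered 83 (66.1 to 102.9), 112 (92.2 to 134.8) and 163 (138.9 to 190.0), or 0.167, 0.245 and 0.227 per bp. Heights were 23, 30 and 31, and folds 3.78, 3.54 and 2.58. Nearer the gene the libraries differed. Only ethylene library 1 had a peak over the lower-numbered end, with its summit 54 bp inside MPK3, 60 tags, 0.146 tags per bp, a height of 22 and a fold of 4.29. That summit also lay inside AT3G45645, a gene record that overlaps MPK3 by 192 bp. Ethylene library 2 and air had a peak past the other end, with summits 221 and 283 bp beyond MPK3, 73 and 100 tags, 0.169 and 0.178 tags per bp, heights of 18 and 24, and folds of 2.97 and 2.80. These summits lay inside NAXT1, a nitrate transporter gene that lies 2 bp from MPK3.

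MPK4, which acts below MKK1 and MKK2, had no peak in its window. The nearest peak edges were 6869 bp away in ethylene library 1, 2114 bp in ethylene library 2 and 1257 bp in air. The air peak just outside the window had a fold of 3.76. A gene without a peak in these lists did not pass the authors' p cutoff of 1e-05, which does not show that the protein was absent.

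By strength the 35 peaks at the set lay near the middle of these lists. Above the list median fold were 6 of 10 peaks in ethylene library 1, 9 of 14 in ethylene library 2 and 5 of 11 in air. Their median tags per bp were 0.157, 0.221 and 0.218, against 0.152, 0.215 and 0.215 over the whole lists. A deposited score of at least 100 was reached by 4 of 10, 5 of 14 and 2 of 11 of these peaks (40%, 35.7% and 18.2%). Over the whole lists it was reached by 3560 of 9156, 4025 of 9958 and 3038 of 8602 peaks. With that threshold only MKK1 and MKK9 still had a peak in all libraries. At MKK9 it was the outermost peak, with summits 1202, 1062 and 1054 bp from the gene and nearer to AT1G73510. MKK5 had a peak in both ethylene libraries and none in air, where its score was 98.15. Of the MPK genes, only MPK1 in ethylene library 1 then had a peak. Just inside the 1000 bp limit were peaks that overlapped the window with summits beyond it. These were the outermost MKK9 peak in all 3 libraries and the outer MPK3 peak in ethylene library 1 and air. Just outside the limit was the air peak 1257 bp from MPK4.

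The share of summits inside gene bodies was near that of all coding genes in the ethylene libraries and lower in air, at 9.09%. Inside a member gene were 2 of 10 summits in ethylene library 1, 4 of 14 in ethylene library 2 and 1 of 11 in air, beside 24.8%, 26.4% and 25.2% for peaks counted the same way at all coding genes. Within 200 bp of a member's end were 4, 6 and 4 summits (40%, 42.9% and 36.4%), where 50.04%, 47.7% and 48.5% of all such peaks lay. The gene table gives no strand, so starts and ends of genes are not told apart. Another coding gene was nearer to the summit than the member, or held it when the member did not, for 3 of 10, 3 of 14 and 6 of 11 peaks.

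Tag density at the regions shared by all libraries was then compared between ethylene and air. There were 8 such regions at members, at MPK1, MPK3, MKK1, MKK2, MKK4 and MKK5 and 2 at MKK9. Density is given as tags per kb of peak per 1000000 kept tags, and it includes background tags under the peak. At MKK1 it was 32.6 and 32.1 in the ethylene libraries 1 and 2, against 25.1 in air. The log2 ratios to air of 0.38 and 0.35 lay at percentiles 88.2 and 98.8 of the 4850 regions shared by all libraries across the genome. At those regions the median ratio was 1.12 for ethylene library 1 and 0.991 for ethylene library 2. Per 1000000 kept tags the MKK1 peak held 66.3, 52.9 and 53.3 tags in ethylene library 1, ethylene library 2 and air. Its widths were 2031, 1647 and 2121 bp, so in ethylene library 2 the higher density came with near-equal tags over a narrower peak. MKK5 had ratios of 1.31 and 1.02, at percentiles 89.6 and 61.5. Where a library had 2 peaks in a region they were pooled, as for ethylene library 2 at MKK5 and MPK1. The 2 MKK5 peaks had densities of 27.8 and 20.3 in ethylene library 2, against 23.7 for the air peak. MKK4 had a ratio of 0.879 in ethylene library 1, at percentile 1.42, and of 1.07 in ethylene library 2, at percentile 77.8.

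The remaining shared regions had ratios of 1.10 to 1.24 for ethylene library 1 and of 0.871 to 1.06 for ethylene library 2. Both ratios use the same air library. Over the 8 regions the median log2 ratio was 0.20 for ethylene library 1 and 0.02 for ethylene library 2, against 0.17 and -0.01 over all shared regions. Peaks in air were wider, covering 7648 bp at these regions against 5967 and 5902 bp in ethylene libraries 1 and 2. The whole lists differed likewise, with a median peak length of 673 bp in air and 488 bp in each ethylene library. Ratios of density and of summed tags therefore differ. Summed tags were 178 per 1000000 kept tags in ethylene library 1, 153 in ethylene library 2 and 188 in air.

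**Figure D3:**
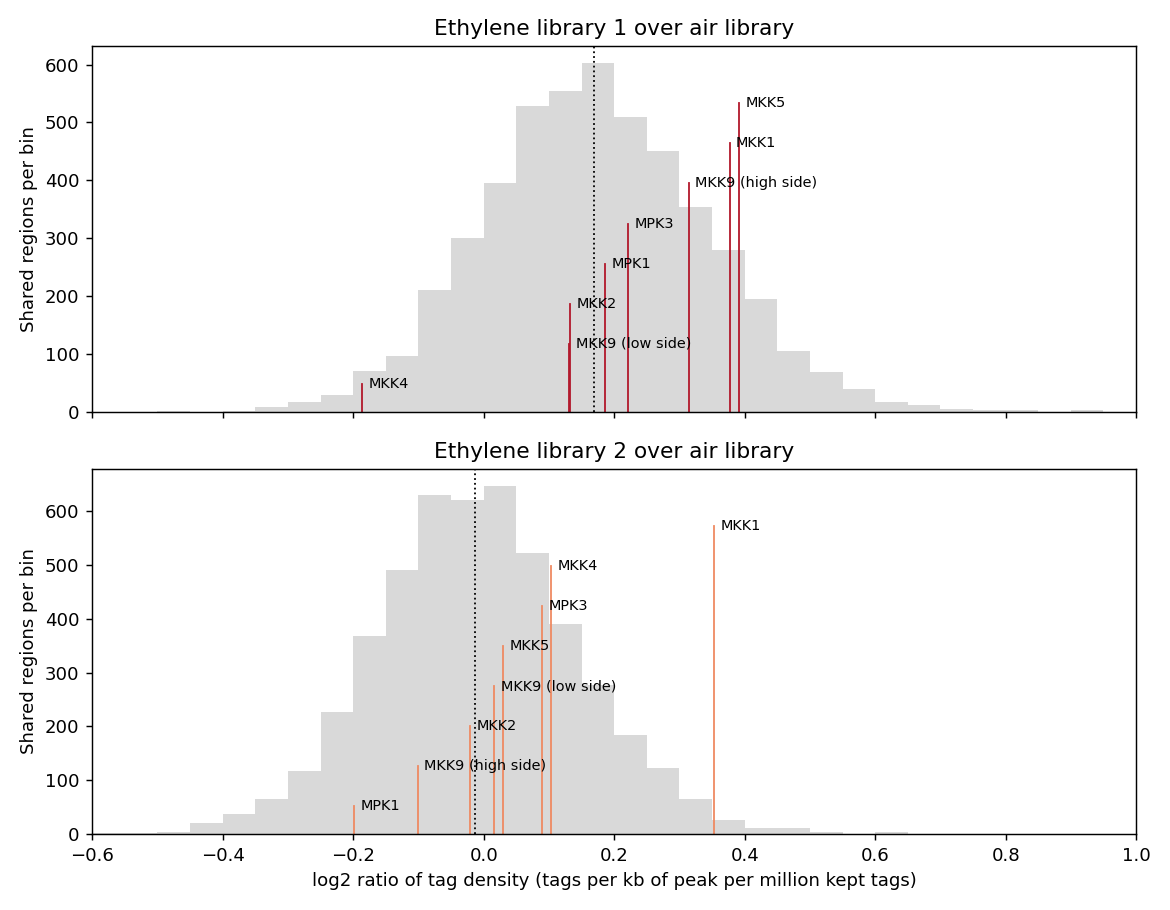
Log2 ratio of tag density, ethylene library 1 over air (top) and ethylene library 2 over air (bottom), for the 4850 regions shared by all libraries (grey, regions per bin of 0.05), with the 8 member regions as coloured lines whose heights only separate the labels. Dotted lines mark the medians of 0.17 and -0.01. MKK1 lies to the right in both panels, at 0.38 and 0.35, and MKK4 lies on opposite sides of the medians. Density depends on the called width, which at MKK1 was 1647 bp in ethylene library 2 and 2121 bp in air.

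The other genes of the cascade were taken from lists of 15 MPK genes, 5 MKK genes, 20 MAP kinase kinase kinases, 6 phosphatases of MAP kinases and 9 substrates, 55 in all. These lists were also drawn up with earlier results known. Of the 55 genes, 36 had a peak in ethylene library 1, 33 in ethylene library 2 and 35 in air. These were 65.5%, 60.0% and 63.6%, and 24 genes had a peak in all libraries. Over all coding genes the shares were 40.7%, 41.2%, 39.2% and 25.6%. Of the 15 other MPK genes, 11 had a peak in ethylene library 1, 12 in ethylene library 2, 12 in air and 10 in all. They were MPK5, MPK9, MPK11, MPK12, MPK13, MPK15, MPK17, MPK18, MPK19 and MPK20. MPK9 had the highest folds of them in every library, at 7.19, 6.30 and 4.91, with summits 45, 25 and 47 bp outside the gene. MPK10 was the 1 gene of these 15 with no peak. Of the 5 other MKK genes, 2 had a peak in each library (40%), beside 40.7%, 41.2% and 39.2% of all coding genes. MKK6, at 3.45, 2.44 and 3.11, was the 1 found in all. With the members included, 7 of 10 MKK genes had a peak in each library. For MPK genes it was 13 of 20 in ethylene library 1 and 16 of 20 in ethylene library 2 and in air.

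Among the 20 listed MAP kinase kinase kinases, 11 had a peak in ethylene library 1, 10 in ethylene library 2 and 10 in air. A peak in all libraries was found at 7 of them. The shares of all coding genes were 40.7%, 41.2%, 39.2% and 25.6% in that order. CTR1, the kinase that holds ethylene signalling off, had the smallest sum of fold ranks of those 7, with folds of 6.49, 4.52 and 3.33. MAPKKK18, which takes part in abscisic acid signalling, had 5.08, 3.90 and 2.63. MAPKKK3 had 4.10, 3.45 and 3.21, and MAPKKK20 had 3.41, 3.41 and 3.46. The phosphatases, which switch MAP kinases off, varied most between libraries among these lists, with peaks at 6 of 6 in ethylene library 1, 2 of 6 in ethylene library 2 and 4 of 6 in air. Only PTP1 had a peak in all, at 3.41, 3.53 and 2.85. MKP2, named after its values were seen, had peaks in both ethylene libraries, at 4.04 and 2.98, and none in air. That pattern was seen at 3 of the 55 genes and at 5.93% of all coding genes.

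Among the 9 substrates, 6, 7 and 7 had a peak in ethylene library 1, ethylene library 2 and air, and 5 in all. The shares of all coding genes were 40.7%, 41.2%, 39.2% and 25.6% in that order. With 9 genes, listed when earlier results were known, these counts are a description only. ACS2, an ACC synthase stabilised by MPK3 and MPK6, had folds of 4.67, 4.39 and 3.56. EIN3, a transcription factor at the head of the ethylene transcriptional response, had folds of 4.36, 4.07 and 3.57, and ERF104, an ethylene response factor released from MPK6 by phosphorylation, had 4.27, 4.30 and 3.17. WRKY33, a transcription factor of defence, had 3.57, 3.42 and 2.88. Each list has its own fold scale, so these values give order within a library only.

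**Figure D4:**
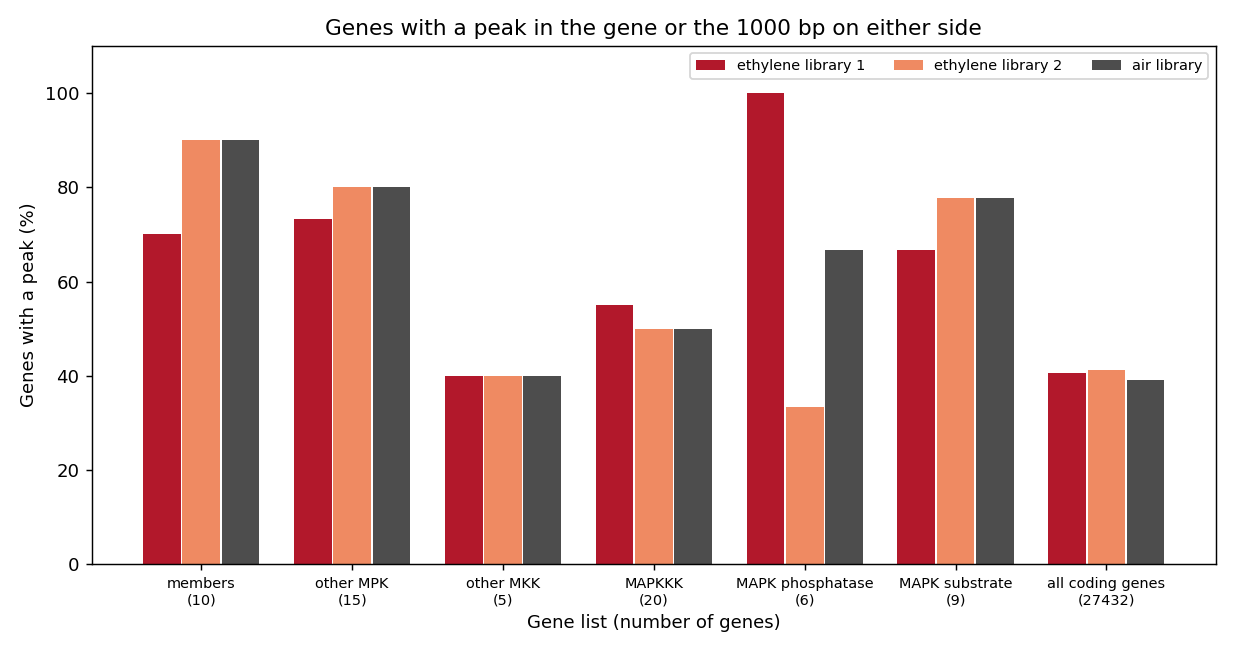
Percent of genes with a peak in ethylene library 1, ethylene library 2 and air, for the 10 members, the other cascade lists and all 27432 nuclear coding genes (bars start at 0). The phosphatase bars run from 33.3% in ethylene library 2 to 100% in ethylene library 1, on 6 genes, and the bars for all coding genes stand at 40.7%, 41.2% and 39.2%.

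By fold percentile in the 3 lists, the coding gene most like MKK5 was its neighbour AT3G21215, which shares the same peaks. Next came AT1G77100, at 7.23, 6.4 and 4.56 in ethylene library 1, ethylene library 2 and air, and AT1G80610, at 7.87, 6.13 and 4.6. Their distances from MKK5 were 0.138 and 0.858 percentile points over 3 libraries.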

How the data were processed

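Per the submitters' processing notes, the aligner was BWA and the genome build TAIR10. Per the file headers, MACS 1.4.2 called peaks for each ChIP library alone against the input of the same treatment (p cutoff 1e-05, 1 tag kept per position, larger data set scaled to the smaller), and both ethylene lists used the same input. The tags of a peak were deposited as raw counts. The fold enrichment (a ratio to local background), the score (10 times the negative log10 of the p-value), the FDR in percent, and the summit height (a signal, the tag pileup) are the authors' deposited values. The headers name another protein than TREE1, and the air run carries a replicate label 2; the sample labels were followed. Duplicates made up 53.7%, 48.6% and 49.7% of tags in ethylene library 1, ethylene library 2 and air, so Poisson intervals cover counting error only. No label states that the ethylene libraries are separate batches of seedlings, so their spread may be technical.

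Windows, merged regions, scaled tags and counts were computed with Python 3.11.15, numpy 2.4.6, pandas 2.3.3 and scipy 1.17.1; matplotlib 3.10.9 drew the figures. Gene positions came from a TAIR10.1 table without strand, and none is printed. Moving summits by up to 2000 bp gave the lowest share inside coding genes when unshifted, for each chromosome in each library (15 of 15). Of 65 list entries 65 matched. The members and lists were chosen with earlier results of these data known. Named genes were all members, other MPK and MKK genes with a peak in all libraries, and up to 4 of each other list by fold rank. Neighbours at member summits and the 3 genes most like the top member by fold were also named. The window rule was checked on simulated peaks: 200 of 200 planted genes were called. Alternatives were other windows, overlaps, score thresholds, scalings and single ethylene libraries. Promoter motifs and sequences were not analysed here, as no sequence was used.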

Additional observations from a re-analysis of the deposited data

How the results depend on the processing

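The counts of members and of other cascade genes stayed within a factor of 1.5 under windows of 500 and 2000 bp, the gene body alone, equal list lengths of 8602 peaks, summits in place of overlap, and at least 50% overlap. A score of at least 100 moved them. Members with a peak then numbered 4 in ethylene library 1, 5 in ethylene library 2 and 2 in air, with 2 in all libraries and 1 in both ethylene libraries without air. The shares of all coding genes were then 18.4%, 19.2% and 16.1%, and the other cascade genes 17, 16 and 14. Shares of all coding genes for the 2 combined patterns were not computed at this score. The 1 member without an air peak was MKK5, whose air peak had a score of 98.15. Without either ethylene library in turn, 7 to 9 members had peaks in all remaining libraries; leaving out ethylene library 1 gave the 9, adding MPK2 and MPK6, beside 30.1% of all coding genes, and leaving out ethylene library 2 gave the 7, beside 29.9%. In these 2 settings the count of members with ethylene peaks and none in air stayed at 0. A window of 2000 bp gave MPK4 a peak in air, and equal list lengths ended the MKK4 call in ethylene library 1. The gene body alone ended the MKK9 calls in ethylene library 2 and air and the MPK1 call in ethylene library 1. By that rule 5 members and 4 of the 5 MKK genes had peaks in all libraries. The matching share of all coding genes was not computed. Summed tags at shared regions were 0.949 times air in ethylene library 1 and 0.818 times in ethylene library 2. Scaled to total tags the first was 0.873, and scaled to tags in peaks the second was 0.993. The planned motif search was not run. No paired analysis was possible because the air library is a single library and no test was made. Ethylene library 1 is the shallowest, with no peak at MPK2 and MPK6, and the part of depth in these calls was not tested.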

Other observations

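Several cascade genes had no peak in any library. Among the MAP kinase kinase kinases these were MEKK2, MEKK3, YDA, MAPKKK5, MAPKKK16, ANP1 and ANP2, which is 7 of 20. MEKK2 and MEKK3 lie close to MEKK1 on chromosome 4. MEKK1 acts above MKK1 and MKK2, and it had a peak in ethylene library 1 alone, with a fold of 4.45 and its summit 94 bp outside the gene. YDA acts above MKK4 and MKK5 in stomatal patterning. MPK14 and MPK16 had a peak in air alone, with folds of 3.72 and 3.44 and summits 19 and 58 bp inside the gene. MKK7 had a peak in air alone as well, but its summit lay 1552 bp from the gene. MKK3, which acts above MPK1 and MPK2, had a peak in ethylene library 1 alone, with a fold of 4.02 and its summit 59 bp outside the gene. These genes were chosen after their values were seen, and 44.7% of all coding genes had no peak in any library. A peak in air alone was seen at 3 of the 55 other cascade genes. Of 10763 coding genes with a peak in air, 8247 had one in ethylene library 2, 8193 in ethylene library 1 and 7036 in both. The share of all coding genes with a peak in a single library alone was not tabulated, so those calls are not read as a result about the cascade.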
